A study of Mus musculus with 16 samples.

Results

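The genes that encode Polycomb repressive complex 2 (PRC2) were examined in the chromatin of hematopoietic stem cells (HSCs), the cells of bone marrow that renew themselves and give rise to blood. The group was fixed by name and held 10 of 21851 protein-coding genes in the GENCODE M21 annotation of the mouse genome (build mm10). It consisted of the methyltransferases Ezh1 and Ezh2, the core subunits Eed and Suz12, the histone-binding subunits Rbbp4 and Rbbp7, and the accessory subunits Jarid2, Mtf2, Phf1 and Phf19. Each gene was followed over its body with 5 kb on either side and at its promoters, the 1 kb before and after the start sites of its protein-coding transcripts. The 10 genes had 20 such start sites.

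HSCs of C57BL/6 mice aged 10 weeks (young) or 20 months (aged) had been sorted from marrow as Lin- cells that were Sca-1+, c-kit+ and CD150+, and that were CD34-, CD48-, Flt3- and IL-7-. The mice of the study were female by its methods, and its scheme pooled marrow before sorting. The histone marks H3K4me3, H3K27me3 and H2AK119ub1 were mapped by chromatin immunoprecipitation and sequencing (ChIP-seq) in 2 libraries for every mark at either age, and 2 inputs at either age brought the total to 16 libraries in 8 groups. The peaks analysed here came as 1 pooled list per mark and age, so 6 lists were used and lists of single libraries were not analysed here. The peak names of the broad lists carry a single library number, and it is not certain that both libraries of a group entered them. Without replicate values there was no error to set a difference against, and no difference between the ages or between gene groups was tested.

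PRC2 is the enzyme complex that places methyl groups on lysine 27 of histone H3. Its core joins a methyltransferase to Eed, Suz12 and a histone-binding subunit, and accessory subunits divide it into a form with Polycomb-like proteins and a form with Jarid2. H3K27me3 is read by PRC1, whose own enzyme places H2AK119ub1, and both marks are known from silent developmental genes. H3K4me3 is known from the start sites of active genes. In HSCs PRC2 is known to restrain differentiation programs.

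The sequences below show promoter DNA of PRC2 genes with different patterns of peaks, and DNA under some of their peaks. H3K4me3 peaks reach into the Eed and Jarid2 stretches, whereas those of Suz12, Rbbp4 and Mtf2 lie beside the stretches shown. Promoter stretches are the 250 bases before a RefSeq start site, read 5′ to 3′ along the gene from RefSeq sequence of build GRCm38.p6 (the assembly of mm10), and capitals mark CpG dinucleotides. Eed and Rbbp4 are shown first because their promoters held H3K4me3 peaks only in the aged list, Suz12 because it held them only in the young list, Jarid2 and Mtf2 because they held them at both ages, and Rbbp7 because it held none.
Eed, chr7:89980977-89981226, minus strand: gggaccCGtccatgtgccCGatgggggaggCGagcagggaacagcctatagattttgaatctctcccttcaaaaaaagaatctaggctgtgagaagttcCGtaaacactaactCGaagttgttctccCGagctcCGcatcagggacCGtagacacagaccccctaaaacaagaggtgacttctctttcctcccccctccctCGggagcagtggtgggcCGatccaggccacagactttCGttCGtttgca
Rbbp4, chr4:129335371-129335620, minus strand: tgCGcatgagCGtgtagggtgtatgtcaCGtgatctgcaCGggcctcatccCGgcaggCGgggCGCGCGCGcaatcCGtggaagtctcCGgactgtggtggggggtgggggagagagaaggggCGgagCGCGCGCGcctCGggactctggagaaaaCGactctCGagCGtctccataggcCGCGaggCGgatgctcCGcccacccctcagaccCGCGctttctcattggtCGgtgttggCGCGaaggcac
Suz12, chr11:79992856-79993105, plus strand: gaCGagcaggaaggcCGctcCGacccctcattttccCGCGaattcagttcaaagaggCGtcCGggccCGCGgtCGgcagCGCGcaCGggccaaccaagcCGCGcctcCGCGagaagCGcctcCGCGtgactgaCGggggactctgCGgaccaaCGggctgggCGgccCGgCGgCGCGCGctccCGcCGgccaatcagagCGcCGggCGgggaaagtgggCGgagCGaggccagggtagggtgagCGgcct
Jarid2, chr13:44731021-44731270, plus strand: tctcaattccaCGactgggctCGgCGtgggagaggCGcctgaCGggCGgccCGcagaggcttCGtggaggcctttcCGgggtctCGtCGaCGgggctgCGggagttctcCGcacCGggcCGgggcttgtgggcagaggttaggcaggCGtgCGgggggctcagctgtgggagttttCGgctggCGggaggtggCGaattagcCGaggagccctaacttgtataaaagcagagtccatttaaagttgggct
Mtf2, chr5:108065424-108065673, plus strand: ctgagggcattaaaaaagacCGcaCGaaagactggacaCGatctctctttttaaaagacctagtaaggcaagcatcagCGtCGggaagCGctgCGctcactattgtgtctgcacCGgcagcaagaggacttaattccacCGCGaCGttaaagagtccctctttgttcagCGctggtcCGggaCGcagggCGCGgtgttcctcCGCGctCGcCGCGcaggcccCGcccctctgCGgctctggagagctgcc
Rbbp7, chrX:162760122-162760371, plus strand: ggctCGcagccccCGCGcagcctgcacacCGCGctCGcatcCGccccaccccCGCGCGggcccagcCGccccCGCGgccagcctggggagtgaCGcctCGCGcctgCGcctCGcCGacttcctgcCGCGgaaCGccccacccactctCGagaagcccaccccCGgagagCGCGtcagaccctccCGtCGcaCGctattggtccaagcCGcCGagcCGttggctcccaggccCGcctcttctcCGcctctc
The other stretches, from under peaks, are read on the plus strand from the same build, again with CpG in capitals. The first is 200 bases around the highest point of the young H3K4me3 peak in an intron of Ezh2, shown for comparison with the DNA under Polycomb regions. The second is the aged H3K27me3 region in an intron of Rbbp7, and the third is the middle 200 bases of the aged H2AK119ub1 region upstream of Phf19.
Ezh2 H3K4me3, chr6:47594182-47594381: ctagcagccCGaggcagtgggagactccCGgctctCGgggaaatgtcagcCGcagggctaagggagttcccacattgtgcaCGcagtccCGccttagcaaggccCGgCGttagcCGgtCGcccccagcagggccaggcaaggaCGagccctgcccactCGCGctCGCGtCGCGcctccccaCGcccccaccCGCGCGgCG
Rbbp7 H3K27me3, chrX:162763526-162763734: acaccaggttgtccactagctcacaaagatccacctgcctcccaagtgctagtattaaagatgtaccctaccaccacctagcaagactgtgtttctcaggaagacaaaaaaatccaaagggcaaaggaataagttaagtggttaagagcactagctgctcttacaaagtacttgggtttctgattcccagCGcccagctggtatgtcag
Phf19 H2AK119ub1, chr2:34914886-34915085: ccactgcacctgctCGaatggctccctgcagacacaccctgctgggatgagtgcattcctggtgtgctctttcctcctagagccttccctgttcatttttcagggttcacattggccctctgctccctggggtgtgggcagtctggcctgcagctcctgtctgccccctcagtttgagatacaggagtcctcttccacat

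The promoter stretches are dense in CpG and the Polycomb stretches are not. Capitals mark 37 CpG dinucleotides in the 250 bases of Suz12, 34 in those of Rbbp7, 30 in those of Rbbp4, 23 in those of Mtf2, 22 in those of Jarid2 and 12 in those of Eed. The intronic Ezh2 stretch holds 22. The Rbbp7 H3K27me3 region and the Phf19 H2AK119ub1 stretch hold 1 each. A CpG-rich promoter was shared by genes with peaks at either age, at both ages and at neither. A link between CpG content and the pattern of peaks was not tested.

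The 6 lists gave 25 peaks over the PRC2 genes and their flanks, of which 20 were H3K4me3 and 5 were Polycomb marks. All 10 genes had at least 1 peak, whereas 31.6% of all protein-coding genes had none in the gene or 5 kb on either side. Ezh1 and Phf19 had theirs in the flank alone. The 7 accessory and antagonist genes and the 20 PRC1 genes compared below also all had at least 1, so this was not particular to PRC2 genes. The PRC2 genes were longer, with a median of 31.8 kb against 17.4 kb over all genes, and a longer window can hold more peaks. The part of length in these counts was not tested. At promoters, 16 of the 25 peaks were found. Ezh1 and Rbbp7 had no peak of any list at a promoter, a state shared by 45.0% of all genes.

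**Figure D1:**
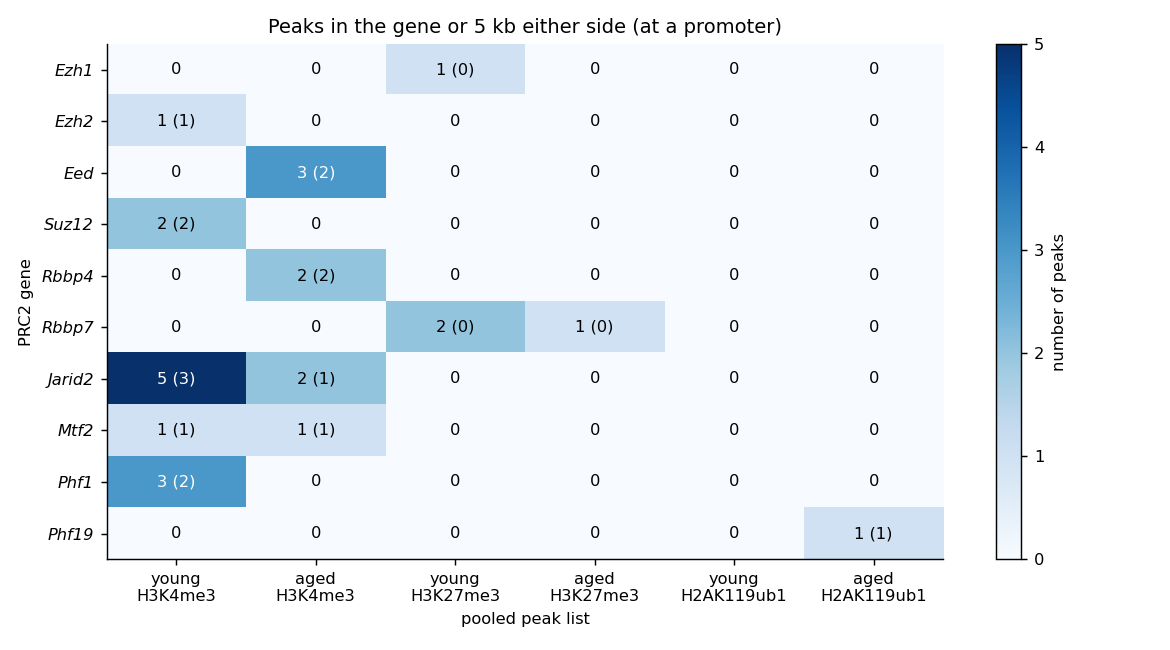
Number of peaks of each pooled list (columns) in the gene or 5 kb on either side for the 10 PRC2 genes (rows), with the number at a promoter in parentheses and the color scale giving the number of peaks. H3K4me3 accounts for 20 of the 25 peaks, and the only Polycomb peak at a promoter is the aged H2AK119ub1 region of Phf19.

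H3K4me3 was found at the promoters of 5 PRC2 genes in young HSCs (Ezh2, Suz12, Jarid2, Mtf2 and Phf1) and of 4 in aged HSCs (Eed, Rbbp4, Jarid2 and Mtf2). Over all genes the shares were 33.8% and 23.3%, and with 10 genes the counts lie near these shares. Jarid2 and Mtf2 were marked at both ages (17.5% of all genes). Ezh2, Suz12 and Phf1 were marked in young only (16.3%), Eed and Rbbp4 in aged only (5.78%), and Ezh1, Rbbp7 and Phf19 at neither age (60.4%). Widening the window to the gene and 5 kb on either side added no gene to either list, while the shares of all genes rose to 40.6% and 29.0%.

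The young count depended on how far down the list the peaks were taken. With the 6723 highest peaks of each age by p-value, the length of the aged list, 2 genes were marked in young HSCs (Jarid2 and Mtf2) and the same 4 in aged HSCs, so the order of the ages turned. The young Ezh2 peak (rank 6347 by q-value) shared its q-value with peaks on either side of this cut. Ties in p-value were ordered by chromosome and position, so whether Ezh2 counted can depend on that order. When peaks had to reach 4 on the −log10 q scale, Ezh2, Jarid2 and Mtf2 were marked in young HSCs and the same 4 genes in aged HSCs.

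In all, 12 young H3K4me3 peaks covered 3979 bp of the PRC2 genes, and 8 aged peaks covered 2876 bp. Fold enrichment over background ran from 2.74 to 4.47 (median 3.87) in the young list and from 3.54 to 6.41 (median 5.40) in the aged list. The medians of the whole lists were 4.04 and 4.20. The young peaks of the PRC2 genes were thus slightly below their list's middle, and the aged peaks lay mostly above theirs. Of the young peaks, 3 of 12 (25.0%) overlapped an aged peak, against 31.5% in the whole list. Of the aged peaks, 3 of 8 (37.5%) overlapped a young peak, against 53.1%.

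**Figure D2:**
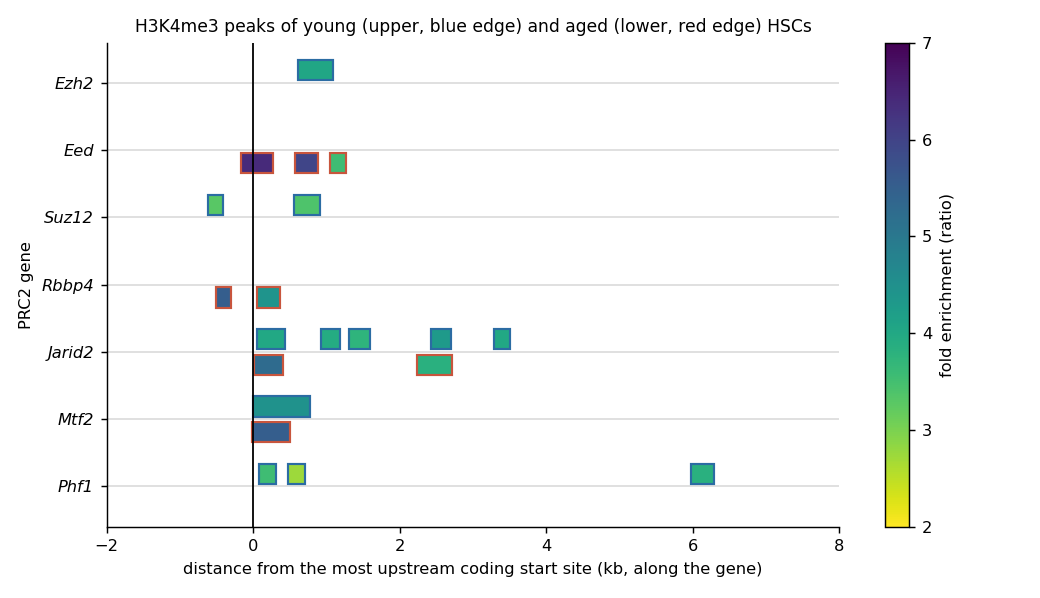
H3K4me3 peaks of the 7 PRC2 genes that had any, drawn as boxes by distance in kb from the most upstream coding start site along the gene, with young peaks above and aged peaks below each line and the fill giving fold enrichment. Boxes of both ages lie over each other at Jarid2 and Mtf2 alone, and the darkest box is the aged peak over the Eed start site (6.41-fold).

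The number of reads behind these peaks was small. The pileup, the number of reads at a peak's highest point, was recovered from fold and p-value for 100% of the H3K4me3 peaks of both ages. The lowest background under any peak in a list was 3.70 reads at the young age and 3.52 at the aged. This value depends on the read total and on the fragment size set in the caller, and the read totals themselves were not compared. The lowest listed pileup was 13 reads at both ages, and a promoter with fewer reads is in neither list. Absence of a peak is therefore absence of a call at this depth. The 95% Poisson intervals given below cover counting error only.

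Ezh2, the methyltransferase of dividing cells, had a single H3K4me3 peak, in young HSCs. It lay in an intron 613 bp downstream of a start site (chr6:47593947-47594417, 471 bp). Its pileup was 18 reads (10.7 to 28.4) over a background of 3.70, a 4.04-fold enrichment with a −log10 q-value of 4.22. It ranked 6347 of 11371 young peaks. No aged peak lay within 283 kb of an Ezh2 start site. With promoters of 500 bp on either side, the peak no longer counted, and 4 genes were marked in young HSCs.

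Ezh1, the related methyltransferase with weaker enzymatic activity, had no H3K4me3 peak at either age. The nearest ones were at the start site of Vps25, 26.9 kb away in the young list and 26.8 kb away in the aged list. Ezh1 had a young H3K27me3 region of 214 bp in intergenic DNA 2781 bp upstream of its start (chr11:101229244-101229457). This region had 3.12-fold enrichment and a −log10 q-value of 1.85, and it had no aged counterpart. The nearest aged H2AK119ub1 region lay 5.12 kb from the start, just outside the window, with 4.04-fold enrichment. The methyltransferases thus differed in the lists, with an active mark at 1 age over Ezh2 and a weak Polycomb region upstream of Ezh1.

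Eed, the subunit that binds trimethylated H3K27, had 3 H3K4me3 peaks in aged HSCs and none in young HSCs. The first lay over the start site (chr7:89980714-89981154, 441 bp), in UTR of Eed and an exon of the noncoding gene E230029C05Rik, which runs the other way from a start 228 bp away. Its pileup was 28 reads (18.6 to 40.5) over a background of 3.52, with 6.41-fold enrichment, a −log10 q-value of 9.91 and rank 24 of 6723. This was the highest-ranked peak over a PRC2 gene, and 0.640% of the aged list reached its −log10 q-value. The second (chr7:89980099-89980413) covered a coding exon with a pileup of 26 reads (17.0 to 38.1), 5.97-fold enrichment and rank 90. The third (chr7:89979721-89979937) lay in an intron 1046 bp downstream of the start with 16 reads (9.15 to 26.0) and 3.54-fold enrichment. Enrichment fell with distance into the gene over these 3 peaks. E230029C05Rik also had 3 aged H3K4me3 peaks within 1 kb of its start sites. The start region is thus shared, and the peaks there cannot be assigned to Eed alone. Of all genes, 1.83% had 3 or more aged H3K4me3 peaks. The nearest young peak lay 39.9 kb away, over the start site of Hikeshi.

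Suz12, the scaffold of the core, had 2 H3K4me3 peaks in young HSCs and none in aged HSCs. They flanked the start site without covering it. The upstream peak (chr11:79992491-79992690, 200 bp, intergenic) ended 416 bp before the start and had 18 reads (10.7 to 28.4) over a background of 4.75, with 3.30-fold enrichment and rank 9727. The downstream peak (chr11:79993664-79994016, 353 bp, intron) began 558 bp after it and had 15 reads (8.40 to 24.7) with 3.40-fold enrichment and rank 10263. Both were in the lower ranks of the young list. The nearest aged H3K4me3 peak lay 19 kb away.

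Rbbp4, a histone-binding subunit that other chromatin complexes also use, had 2 H3K4me3 peaks in aged HSCs and none in young HSCs. A peak of 315 bp (chr4:129335007-129335321) began 49 bp into the gene over UTR and coding exon, with 19 reads (11.4 to 29.7), 4.42-fold enrichment and rank 2256. The stronger one (chr4:129335677-129335876, 200 bp) lay 307 bp upstream with 24 reads (15.4 to 35.7), 5.53-fold enrichment and rank 272. It covered UTR of Zbtb8os, which starts 325 bp away on the other strand. The promoter is thus shared by both genes, and the peaks cannot be assigned to Rbbp4 alone. The nearest young peak lay 146 kb away.

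Rbbp7, the X-linked relative of Rbbp4, had no H3K4me3 peak within 1042 kb of a start site at either age. It had 2 H3K27me3 regions in young HSCs and 1 in aged HSCs, none at a promoter. The aged region (chrX:162763526-162763734, 209 bp) and a young one (chrX:162766606-162766805, 200 bp) both lay in an intron and were 2872 bp apart. Their fold enrichment was 3.24 and 2.94, with −log10 q-values of 1.74 and 1.55. The other young region (chrX:162781950-162783108, 1159 bp, 3.06-fold) lay beyond the end of Rbbp7 over a coding exon of Txlng. No Rbbp7 region was thus found at the same place at both ages. Bases masked as repeats in the reference made up 42.6% of the aged region, 27% of the young intronic region and 21% of the other, above the medians of 13.0% in the aged and 13.7% in the young list. The part of repeats in these calls was not tested.

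Jarid2, the DNA-binding subunit that defines a PRC2 form, had the most H3K4me3 peaks of the group, with 5 in young HSCs and 2 in aged HSCs. Of all genes, 0.737% had 5 or more young H3K4me3 peaks, and Jarid2 is also the longest PRC2 gene (192 kb). The 5 young peaks did not spread over that length but spanned 3.46 kb near the 5′ end, the last one ending 3509 bp from the most upstream coding start site, in UTR, exons and introns. Their pileups were 19, 20, 25, 22 and 19 reads in order along the gene, with fold enrichment from 3.75 to 4.30. The 2 aged peaks spanned 2.70 kb there, the second ending 2711 bp from that site, with 25 reads (5.28-fold) and 21 reads (3.83-fold). The highest enrichment was thus at the fourth peak in the young list and at the first in the aged list.

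Both aged Jarid2 peaks overlapped a young peak. At the first pair (young chr13:44730829-44731208, aged chr13:44730788-44731187), 359 bp were shared, and the aged peak had 1.32 times the pileup of the young peak, 25 reads (16.2 to 36.9) against 19 (11.4 to 29.7). At the second pair the ratio was 0.955, 21 reads (13.0 to 32.1) against 22 (13.8 to 33.3). The counting intervals overlapped in both pairs, and the difference was not tested. The 3 young peaks without an aged partner had an aged peak within 641 bp.

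Mtf2, a Polycomb-like subunit that brings PRC2 to CpG-rich DNA, had 1 H3K4me3 peak at each age over a GENCODE coding start site. The young peak (chr5:108065735-108066511) was 777 bp wide and the aged peak (chr5:108065730-108066240) 511 bp wide. They shared 506 bp over UTR and coding exon. The young peak had 30 reads (20.2 to 42.8) over a background of 5.94, and the aged peak 24 reads (15.4 to 35.7) over 3.52. Fold enrichment was 4.47 and 5.53. The ratio of aged to young was thus 1.24 for enrichment and 0.800 for pileup, in opposite directions, the local background being higher under the young peak. The read intervals overlapped. The young peak ranked 876 of 11371 and the aged peak 272 of 6723, and 9.72% and 5.74% of these lists reached the same −log10 q-values.

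**Figure D3:**
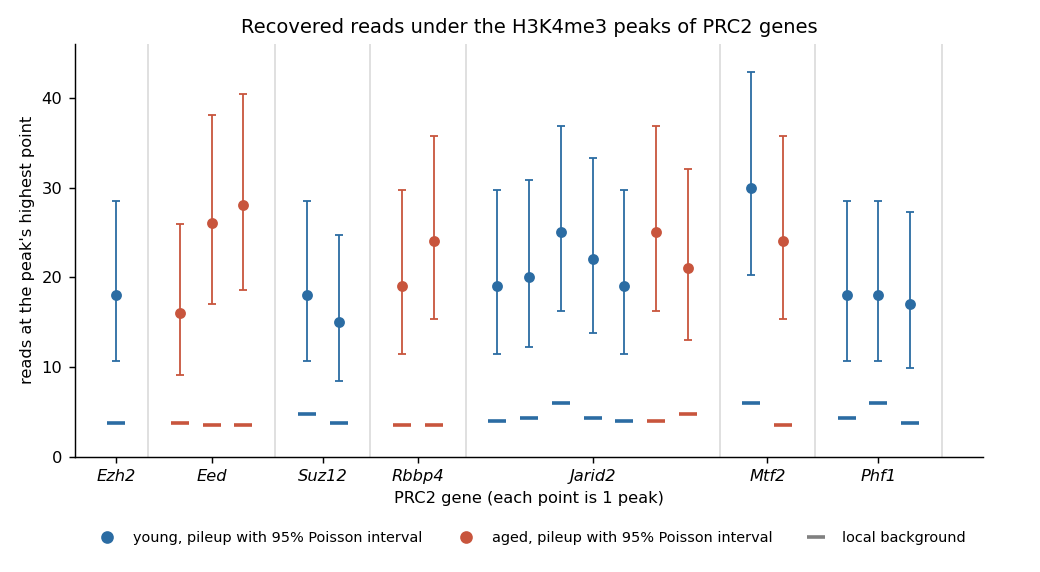
Recovered number of reads at the highest point (vertical axis) of each of the 20 H3K4me3 peaks over PRC2 genes, ordered by gene and age, with 95% Poisson intervals as bars and the local background as short dashes. Pileups run from 15 to 30 reads, and the intervals of all 3 young and aged pairs at Jarid2 and Mtf2 overlap.

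Phf1, another Polycomb-like subunit and the shortest PRC2 gene (4.86 kb), had 3 H3K4me3 peaks in young HSCs and none in aged HSCs. A peak over a start site (chr17:26933128-26933359, UTR) had 18 reads (10.7 to 28.4) and 3.55-fold enrichment. A second in UTR (chr17:26933527-26933760) also had 18 reads but a background of 5.94, and with 2.74-fold enrichment and rank 11018 it was the weakest H3K4me3 peak of the group. The third (chr17:26939029-26939337, 17 reads, 3.83-fold) lay beyond the end of Phf1 over UTR and coding exon of Cuta. The nearest aged H3K4me3 peak was 47.5 kb away.

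Phf19, the third Polycomb-like subunit, had no H3K4me3 peak at either age. The nearest ones lay near the start site of Psmd5, 43.2 kb away in the young and 43.8 kb away in the aged list. Phf19 had instead an H2AK119ub1 region in aged HSCs (chr2:34914732-34915238, 507 bp) that began 756 bp upstream of its start. It had 3.45-fold enrichment and a −log10 q-value of 2.50, and ranked 2315 of 17768. The region covered an exon of the noncoding gene Gm13448, which starts 1105 bp from Phf19 on the other strand. A promoter with an aged H2AK119ub1 region and no other peak was found in 2.55% of all genes. The nearest young H2AK119ub1 region lay 700 kb from the start of Phf19.

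The Polycomb marks were listed at few of the genes that encode PRC2 itself. At promoters, H3K27me3 was found at 0 of the 10 genes at both ages, against 16.0% of all genes in young and 8.24% in aged HSCs. H2AK119ub1 was found at 0 of the 10 in young HSCs (1.91% of all genes) and at Phf19 in aged HSCs (14.0%). In the gene or 5 kb on either side, H3K27me3 was found at 2 genes in young HSCs (27.8%) and at 1 in aged HSCs (16.5%), and H2AK119ub1 at 0 (5.99%) and 1 (29.0%). With 10 genes, these counts lie near the shares of all genes. No lack of Polycomb marks at PRC2 genes can be read from them. With a flank of 10 kb, Ezh1 and Phf1 joined Phf19 in the aged H2AK119ub1 list.

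Polycomb regions were listed at neighbours of some PRC2 genes. The nearest H3K27me3 and H2AK119ub1 regions of Rbbp4 at both ages lay together 47.4 to 48.7 kb away, at the start of Sync, with fold enrichment of 3.87 and 3.01 for young and aged H3K27me3 and of 4.30 and 3.63 for young and aged H2AK119ub1. Near Suz12, an aged H3K4me3 peak at 19 kb, a young H3K27me3 region at 18.3 kb and an aged H2AK119ub1 region at 18.9 kb overlapped upstream of the gene. Over the group, the median distance from a start site to the nearest H3K27me3 region was 55.6 kb in young and 200 kb in aged HSCs, against 57.7 kb and 139 kb over all genes. For H3K4me3 the medians were 13.8 kb and 22.9 kb, against 28.7 kb and 63.4 kb. The young H3K4me3 median of the group fell in the gap between Ezh2 at 0.613 kb and Ezh1 at 26.9 kb. It thus reflects that 5 of the 10 genes had a young peak at a promoter. The group's medians were shorter for H3K4me3, similar for young H3K27me3 and longer for aged H3K27me3. With 10 genes, no closeness of PRC2 genes to H3K4me3 can be read from them.

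The other genes of the Polycomb system gave a broader frame. Of 7 accessory and antagonist genes of PRC2 (Aebp2, Epop, Lcor, Lcorl, Ezhip, Kdm6a and Kdm6b), 4 carried H3K4me3 at a promoter in young HSCs and 2 in aged HSCs. The shares of all genes were 33.8% and 23.3%. Kdm6a, an H3K27 demethylase, was marked at both ages, and Aebp2, a partner of Jarid2, in young only. Epop, which joins the Polycomb-like form, had H3K27me3 at both ages and H2AK119ub1 in aged HSCs at a promoter. In the gene or 5 kb on either side, Epop had H2AK119ub1 in young HSCs too. Of 20 PRC1 genes, 13 carried H3K4me3 at a promoter in young and 13 in aged HSCs, beside the same 33.8% and 23.3%. Among them, Cbx8 carried H3K27me3 at a promoter at both ages, and Bmi1 and Cbx2 at a promoter in young HSCs only. In the gene or 5 kb on either side, Bmi1 and Cbx2 had H3K27me3 in aged HSCs too. At promoters, H2AK119ub1 was found at 0 PRC1 genes in young and at 8 in aged HSCs, beside the 1.91% and 14.0% of all genes in a list that held 2593 regions in young and 17768 in aged HSCs. In the gene or 5 kb on either side it was found at 5 and 13 PRC1 genes, beside 5.99% and 29.0% of all genes. At promoters in the aged list, 40.0% of PRC1 genes and 10.0% of PRC2 genes were thus marked, with no test of the difference.

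**Figure D4:**
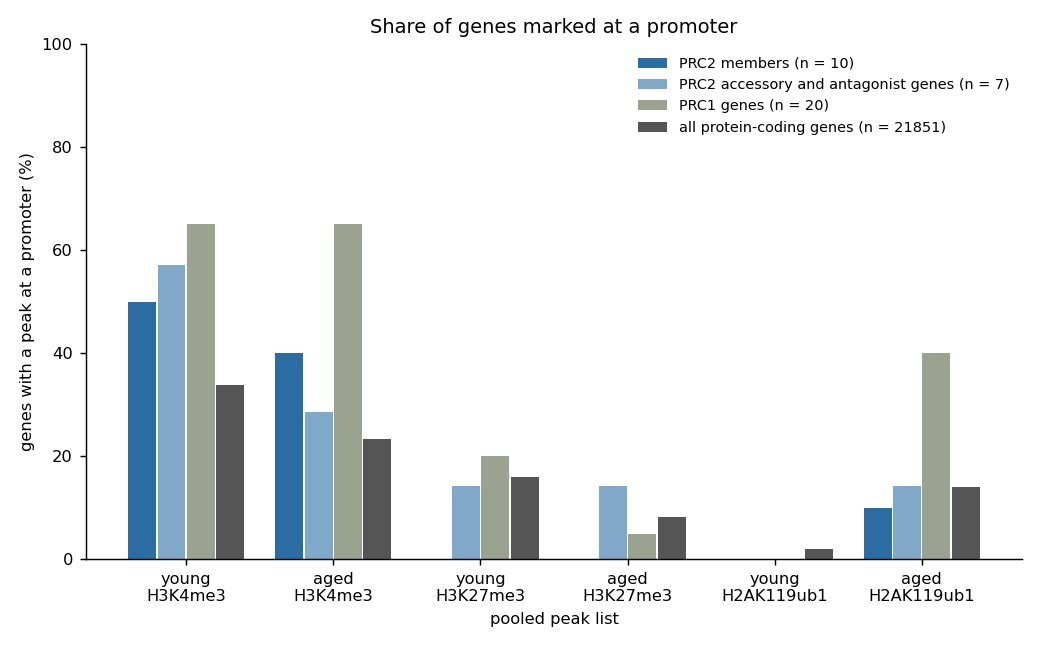
Percentage of genes with a peak at a promoter in each of the 6 pooled lists, as bars for the 10 PRC2 genes, 7 accessory and antagonist genes, 20 PRC1 genes and all 21851 protein-coding genes. For H3K4me3 the bars of PRC2 genes, which stand for 5 and 4 genes, are at 50.0% beside 33.8% of all genes in young and at 40.0% beside 23.3% in aged HSCs. With lists of equal length the young count is 2, which leaves out an Ezh2 peak tied in q-value at the cut.

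Base composition differed between the marks. The 12 RefSeq promoters of the 10 genes (250 bases before and 50 after a start, Jarid2 and Mtf2 having 2 each) had a median GC content of 64.3% and a ratio of observed to expected CpG of 0.911, against 52.7% and 0.384 over 32851 promoters. The single CpG-poor one was the internal promoter of Mtf2 (ratio 0.132), which held no peak. The CpG-rich stretches of Ezh1, Ezh2, Suz12, Rbbp7, Phf19 and the other Mtf2 promoter held none either. Under the H3K4me3 peaks the median CpG ratio was 0.617 in young and 0.801 in aged HSCs, against 0.604 and 0.619 in the whole lists. Under the 4 H3K27me3 regions it ran from 0.0917 to 0.236, and under the Phf19 H2AK119ub1 region it was 0.106. The medians of the whole lists were also low, at 0.178 in young and 0.206 in aged H3K27me3 and 0.240 in aged H2AK119ub1.

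**Figure D5:**
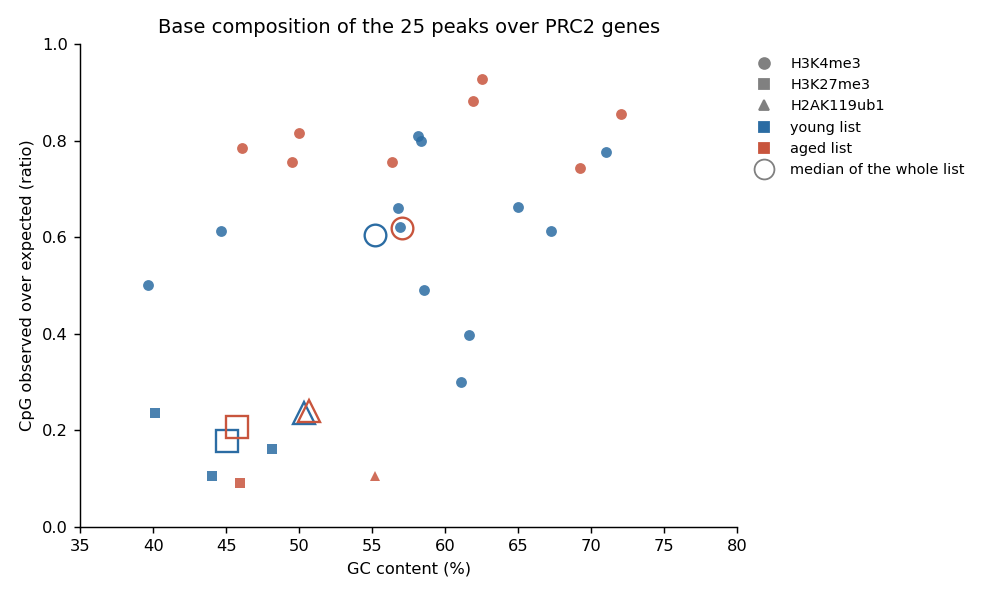
GC content (%) and ratio of observed to expected CpG of the 25 peaks over PRC2 genes (filled symbols, circles for H3K4me3, squares for H3K27me3, triangle for H2AK119ub1, color for age), with the median of each whole list as an open symbol. The 8 aged H3K4me3 peaks have ratios from 0.743 to 0.927, and the 5 Polycomb regions at most 0.236.

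Exact matches of short motifs were sought on both strands of these 300-base promoters. TTTCCCGC, bound by E2F factors, which act in the cell cycle, occurred in Suz12 at 219 bases before the start and in Phf19 at 208 bases before it on the other strand, and in 1.07% of all promoters. TTTGGCGC, another E2F motif, occurred in Ezh2 at 4 bases after the start, and in 0.514% of all promoters. CCAAT, bound by NF-Y, occurred in 8 of the 12 promoters, which belong to 7 genes (all but Ezh1, Phf1 and Phf19), and in 37.4% of all promoters. The matches in Mtf2 all lay in its internal promoter, not in the one just before its H3K4me3 peaks. TATAAA occurred in 1 promoter of Jarid2, 31 bases before its start, and in 13.6% of all promoters. GCATGCGC (NRF1, 2.71% of promoters) and CCGGAAGT (ETS factors, 3.89%) occurred in none. No match of a motif overlapped a match of another, and a match is not a bound site. The genes with an E2F match, Ezh2, Suz12 and Phf19, had 2 different patterns of peaks.

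Markers of the sorted cells were checked in the H3K4me3 lists. At promoters, 7 of 10 HSC genes were marked at each age, Gata2 in young only and Kit in aged only. Of the genes whose proteins were used for the sort, Ly6a, which encodes Sca-1, and Slamf1, which encodes CD150, were marked at neither age, and Kit had no peak in young HSCs. Of the markers of other cells, 0 of 4 T cell, 1 of 4 B cell (Ebf1), 0 of 5 granulocyte and macrophage and 0 of 3 stromal genes were marked at either age. Epor, an erythroid gene, was marked in young HSCs and not in aged HSCs. The part of other cells in the young-only peaks of Ezh2, Suz12 and Phf1 was not tested.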

How the data were processed

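Per the labels, formaldehyde-fixed chromatin was sonicated and digested with micrococcal nuclease before immunoprecipitation, and input DNA was sequenced alongside. The submitters' processing notes name Bowtie2, MACS2 2.2.6 and build mm10, without giving their roles. The deposited lists hold 11371 young and 6723 aged H3K4me3 peaks, 63142 and 20419 H3K27me3 regions, and 2593 and 17768 H2AK119ub1 regions. For each peak the authors deposited its linear fold enrichment (a ratio to background), and the −log10 of the p-value and of the q-value, as the peak caller wrote them. The authors also deposited a display score per peak, which was not used. For broad regions the values are averages. Aligned duplicates, reads with several positions and the caller's threshold all decide which peaks are listed.

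Peaks were assigned to genes by overlap of at least 1 bp, with coding start sites of the GENCODE M21 basic set, computed with pandas 2.3.3, numpy 2.4.6 and scipy 1.17.1 under Python 3.11.15. Overlaps were checked against bedtools 2.31.1. For H3K4me3 the pileup and background were solved from fold, (pileup + 1) / (background + 1), and the Poisson p-value, within 0.01 on the −log10 scale. Both steps were tested on simulated data. Sequences were read with pysam 0.24.0 and samtools 1.23.1, and plots drawn with matplotlib 3.10.9. Lists were compared by counts, since 1 pooled list per mark and age allows no test. All 10 PRC2 genes are named, with the best peak of each list and all H3K4me3 peaks at promoters. Neighbouring genes and the remaining peaks were named after their values were seen. Columns of unmapped samples numbered 0. The genes, lists and motifs were chosen with earlier results of these data known. A few single genes of the comparison lists are not reported here.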

Additional observations from a re-analysis of the deposited data

How the results depend on the processing

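No paired analysis was possible because the peaks of a group came already pooled into 1 list, and for the same reason no library was left out in turn. The depth, with a lowest background of 3.70 reads at a base in young and 3.52 in aged HSCs for H3K4me3, limits which promoters are listed.

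The 21 counts over the PRC2 genes were recomputed under the alternatives, which gave 107 values. Of these, 82 stayed within 1.5 times the reported count and 25 did not. The 82 include counts of 0 that stayed 0, for H3K27me3 at promoters and for young H2AK119ub1. Stricter thresholds and narrower windows cannot raise a count of 0, so these values do not measure stability. With −log10 q of at least 4 for H3K4me3 and 2 for the broad marks, the young H3K4me3 genes fell to 3, at promoters and over genes alike, and the young H3K4me3 peaks to 7. The H3K27me3 genes and regions fell to 0 at both ages. With the same number of top peaks at both ages, the young H3K4me3 genes fell to 2, at promoters and over genes alike, and the peaks to 6. These values leave out the Ezh2 peak, which was tied in q-value with peaks on either side of the cut. The young H3K27me3 genes and regions fell to 0, as did the aged H2AK119ub1 genes and regions, at promoters too. Joining peaks within 1 kb left 6 young and 5 aged H3K4me3 peaks. Without the flank, young H3K27me3 was found at 1 gene with 1 region, and aged H2AK119ub1 at 0 with 0 regions. With a flank of 10 kb, there were 7 young H3K27me3 regions, and aged H2AK119ub1 was found at 3 genes with 3 regions. Promoters of 500 bp on either side left 0 genes with aged H2AK119ub1. The highest H3K4me3 peak over the gene in place of the promoter moved the young value to 4.30 for Jarid2 and 3.83 for Phf1. Start sites of all transcripts, those of the full annotation set (added after seeing the data), promoters of 2 kb and an overlap of at least 200 bp moved none of the promoter counts beyond that limit.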
